A study of Mus musculus with 6 samples.

Results

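The genes described here are 10 genes of DNA replication and cell cycle entry: Mcm2, Mcm3, Mcm4, Mcm5, Mcm6, Mcm7, Pcna, Rrm1, Rrm2 and Cdk1. They were chosen by name, as the probe sets whose annotation gives exactly 1 of these genes, and all 10 were measured, by 27 of the 34945 probe sets that name a single gene (10 of 18193 genes). Each gene is given by its brightest probe set over the 6 arrays, and levels are log2 values made with RMA. The livers came from male C57BL/6J mice 8 weeks old, hybridised to 6 Affymetrix expression arrays in 3 groups of 2. Fed wild-type mice had normal chow, fasted wild-type mice had no food for 24 h, and fasted Cnot3+/- mice carry the genotype labelled Cnot3+/- and also had no food for 24 h. Cnot3 belongs to CCR4-NOT, the complex that shortens the poly(A) tails of mRNAs. The fasted mice were also housed singly, per the labels, so the effects of the fast and of this housing cannot be told apart. No group joins Cnot3+/- with feeding, and what the Cnot3 allele lacks is not described in the labels.

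Before a cell copies its DNA, the proteins of Mcm2 to Mcm7 form a ring that is loaded on replication origins and later unwinds the double helix. Pcna is the sliding clamp that holds DNA polymerases on the template, Rrm1 and Rrm2 are the large and small subunits of ribonucleotide reductase, which makes the deoxynucleotides, and Cdk1 is the kinase that drives entry into mitosis. In adult liver nearly all hepatocytes rest outside the cell cycle, and these genes rise when the liver regenerates. Many of them are known targets of E2F transcription factors, which are silenced in resting cells by the retinoblastoma family of proteins.

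The 6 arrays had medians from 5.59 to 5.64, so a level near 5.62 is that of a middling probe set, for which signal over background is uncertain. The summed level of 6 measured hepatocyte markers, among them Alb and Ttr, lay between 17.23 and 17.35 (log2) on every array, as the labelled tissue would have. Cnot3 itself read 9.27 and 9.32 in fasted wild-type and 9.40 and 9.16 on the arrays labelled Cnot3+/-, a difference of -0.01 (95% confidence interval -0.34 to 0.31), so this level gives no check of the genotype and the groups are named as labelled. The proliferation markers Mki67 and Top2a, which are high in dividing cells, were under the array medians on all 6 arrays (Mki67 from 4.42 to 4.86, Top2a from 4.66 to 5.03). The arrays of a group are called biological replicates in the labels, and their small number, 2 a group, bounds what can be resolved.

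After the 24 h fast Mcm5, Mcm6 and Rrm2 fell, and no replication gene rose. In the limma fit over all genes, 3 of 10 replication genes passed at an adjusted p under 0.05, all downward, where 3.15% of the 18193 genes were called lower and 1.87% higher. The median difference of the 10 genes, fasted minus fed wild-type, was -0.49 on the log2 scale, and over all genes it was 0.02. The differences ran from -1.39 for Mcm6 to 0.00 for Mcm7 and Pcna. For 6 genes (Mcm3, Mcm5, Mcm6, Rrm1, Rrm2 and Cdk1) both fasted wild-type arrays lay below both fed arrays, which 23.7% of all genes showed; 0 genes lay above, against 27.1% of all. Each of the 3 calls depended on having 2 arrays in both wild-type groups: 0 of the 10 genes passed when any of these 4 arrays was left out, while the calls over all genes went from 913 to between 137 and 458. A bulk liver sample cannot tell fewer cells of a type from less RNA per cell.

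**Figure D1:**
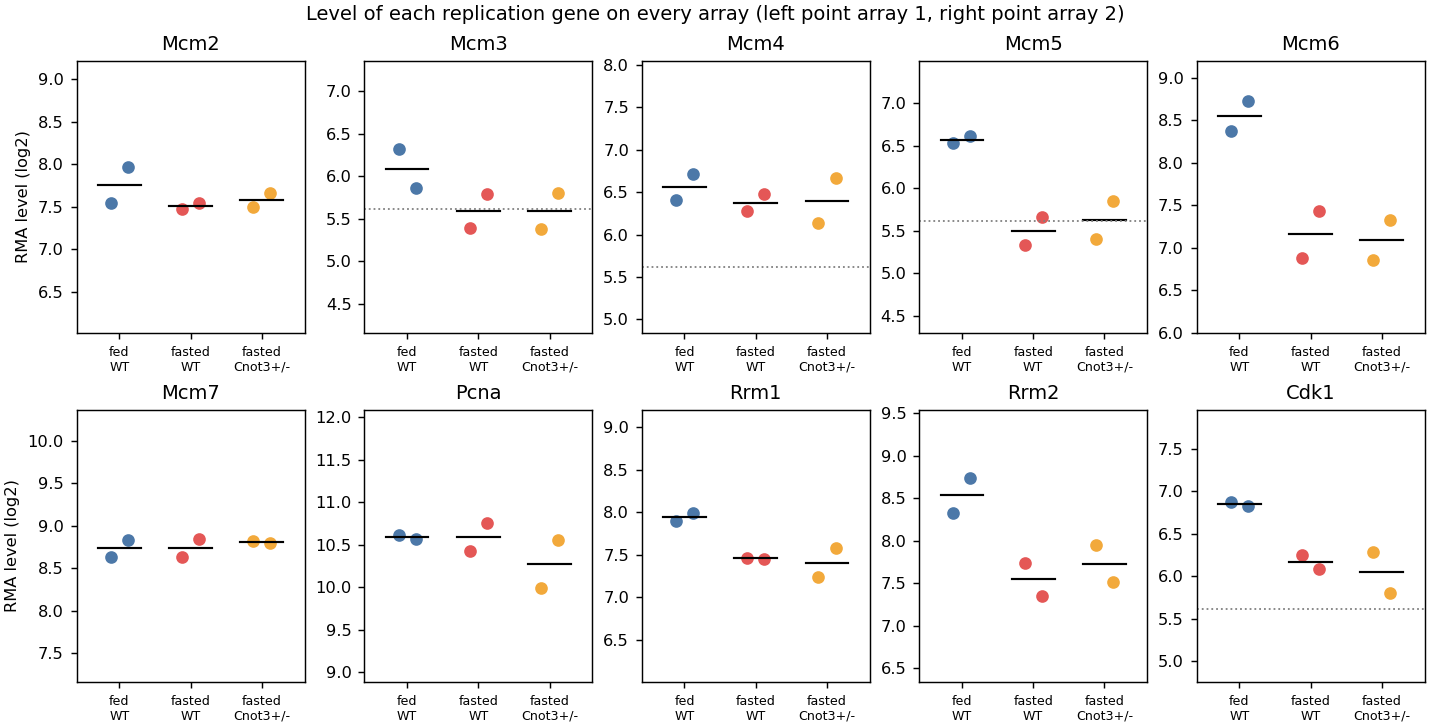
RMA log2 level of the 10 replication genes on each of the 6 arrays, with the left and right point of a group for arrays 1 and 2, a bar for the group mean, an axis of the same span in every panel and a dotted line at the mean array median (5.62). Mcm3, Mcm5, Mcm6, Rrm1, Rrm2 and Cdk1 stand lower on all 4 fasted arrays than on the fed arrays. Mcm7 stays between 8.63 and 8.84 in every group.

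The promoters of the 3 genes that fell are shown with those of Cdk1 and Mcm7 because they carry different sets of cell cycle motifs. Each sequence holds the 250 bases before the annotated start, from RefSeq (GRCm38.p6), on the strand of the gene. Capitals mark E2F-type matches (TTTGGCGC, TTTCGCGC, TTTCCCGC or TTTGCCGC on either strand), and in Cdk1 also the CHR element TTTGAA, a motif of genes expressed late in the cell cycle. The Mcm6 sequence is chr1:128359706-128359955 (minus strand), Mcm5 is chr8:75109259-75109508 (plus), Rrm2 is chr12:24708004-24708253 (plus), Cdk1 is chr10:69352913-69353162 (minus) and the Mcm7 start farther upstream is chr5:138171884-138172133 (minus).
Mcm6: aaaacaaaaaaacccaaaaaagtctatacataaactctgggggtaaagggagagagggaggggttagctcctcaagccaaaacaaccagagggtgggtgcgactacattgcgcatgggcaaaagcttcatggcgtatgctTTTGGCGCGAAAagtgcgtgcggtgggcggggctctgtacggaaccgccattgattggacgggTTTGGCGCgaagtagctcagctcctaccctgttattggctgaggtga
Mcm5: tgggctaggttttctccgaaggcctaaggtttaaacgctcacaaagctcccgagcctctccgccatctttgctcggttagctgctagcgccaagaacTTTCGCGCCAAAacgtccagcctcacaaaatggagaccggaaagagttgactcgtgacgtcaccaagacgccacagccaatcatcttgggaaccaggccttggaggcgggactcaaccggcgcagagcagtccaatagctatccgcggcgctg
Rrm2: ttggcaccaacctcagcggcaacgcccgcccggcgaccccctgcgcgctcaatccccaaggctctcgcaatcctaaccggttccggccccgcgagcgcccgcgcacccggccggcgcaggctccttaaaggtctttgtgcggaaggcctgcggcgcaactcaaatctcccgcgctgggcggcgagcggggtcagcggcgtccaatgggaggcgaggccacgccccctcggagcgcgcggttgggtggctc
Cdk1: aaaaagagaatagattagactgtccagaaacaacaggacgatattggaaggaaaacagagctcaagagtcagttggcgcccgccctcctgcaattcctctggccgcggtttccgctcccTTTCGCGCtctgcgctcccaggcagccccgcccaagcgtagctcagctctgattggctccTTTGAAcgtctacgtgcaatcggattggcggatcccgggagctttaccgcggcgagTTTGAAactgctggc
Mcm7: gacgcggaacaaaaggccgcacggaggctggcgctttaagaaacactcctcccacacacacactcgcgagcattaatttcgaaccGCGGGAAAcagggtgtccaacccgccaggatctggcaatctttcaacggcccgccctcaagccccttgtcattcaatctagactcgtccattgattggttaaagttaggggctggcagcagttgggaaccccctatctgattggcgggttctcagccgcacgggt

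In Mcm6 there were 2 E2F-type sites, starting at -110 and -47 relative to the annotated start, and the first is a pair of overlapping matches, TTTGGCGC on the gene's strand and TTTCGCGC on the other. Mcm5 has the same pair in the other orientation, from -153. Cdk1 has 1 E2F-type match at -131 and CHR matches at -71 and -15. Rrm2, which fell, has no match to these E2F letters in its window, and Mcm7, which did not pass, has a match at -165 and another at 17, past the bases printed. Windows reaching from 250 bases before to 50 after a start were found for 9 of the 10 genes, and 5 of them held an E2F-type match (Mcm3, Mcm5, Mcm6, Mcm7 and Cdk1), as did 2.26% of all 32851 windows. A pair or more of separate E2F-type sites was present in 0.0913% of all windows. The CCAAT box, searched as CCAAT on either strand and a common promoter element, was in the windows of all 9 genes and in 37.4% of all windows, and TTTGAA was in Mcm2 and Cdk1 and in 17.9% of all windows. The matches are letters only and show no binding.

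**Figure D2:**
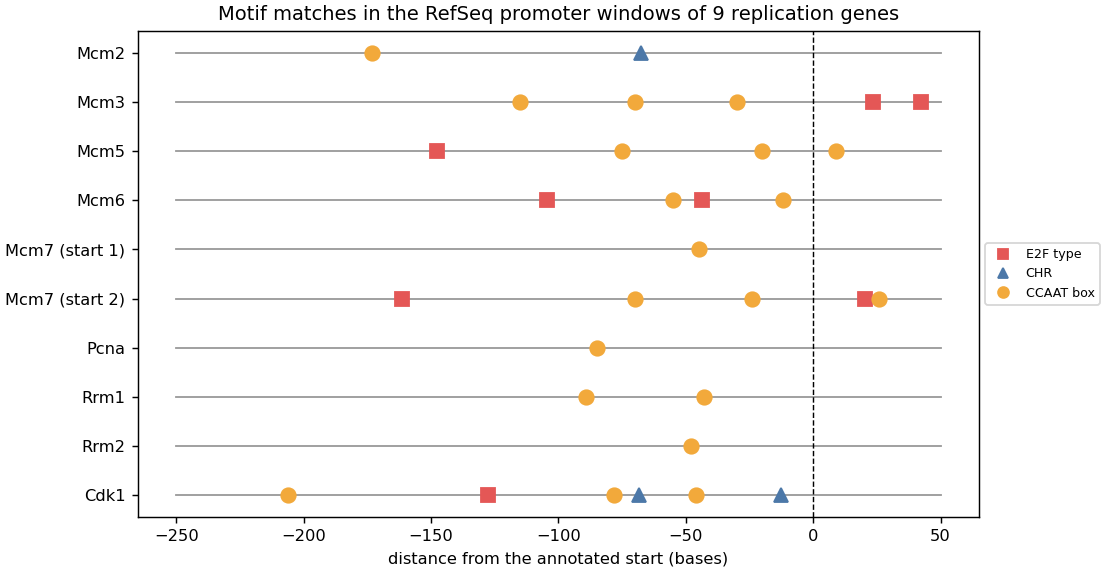
Motif matches along the 300 bases around each annotated start, in bases from the start (dashed line), for the 10 RefSeq windows of 9 replication genes. Squares mark E2F-type sites with overlapping matches merged, triangles the CHR element and circles the CCAAT box; Mcm6, Mcm3 and the upstream start of Mcm7 have 2 squares each and Rrm2 has none.

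Mcm6, a subunit of the helicase ring, showed the largest difference among the 10 genes. It read 8.37 and 8.72 in fed liver, 6.88 and 7.43 in fasted wild-type liver and 6.85 and 7.32 in fasted Cnot3+/- liver. All 4 fasted arrays were low and did not overlap the fed arrays. The fall was 1.39 on the log2 scale (SE 0.24, 95% confidence interval -1.95 to -0.83, limma adjusted p = 0.0224), which is 2.62-fold. With single wild-type arrays left out the adjusted p was 0.0503 to 0.141 and the difference -1.66 to -1.12.

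Mcm5, the subunit next to Mcm2 at the gate of the ring, read 6.53 and 6.62 in fed liver, 5.32 and 5.66 in fasted wild-type liver and 5.40 and 5.85 in fasted Cnot3+/- liver. The groups of wild-type mice did not overlap, and the difference was -1.08 (SE 0.19, limma adjusted p = 0.0228). Its fasted wild-type mean, 5.49, lies under the array medians, so the size of this fall, 2.12-fold, is uncertain for this probe set. Without 1 of the wild-type arrays its adjusted p was 0.0682 to 0.156. Averaged over its 3 probe sets, of which 2 were dim, the difference was -0.59 and did not pass (adjusted p = 0.0571), and without shared probe sets it was -0.67 (0.0483).

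The other 4 helicase subunits did not pass the test. Mcm3 read 6.31 and 5.86 in fed, 5.39 and 5.80 in fasted wild-type and 5.37 and 5.80 in fasted Cnot3+/- liver, a fasting difference of -0.49 (interval -1.02 to 0.03) with a fasted mean under the array medians. Mcm2 read 7.54 and 7.97, then 7.47 and 7.55, then 7.49 and 7.66 in the same order of groups, a difference of -0.24 (interval -0.63 to 0.15). Mcm4 read 6.40 and 6.71, then 6.28 and 6.47, then 6.13 and 6.66, a difference of -0.18 (interval -0.66 to 0.30). In these 3 genes the spread within groups was of the same order as the differences.

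Mcm7, the subunit next to Mcm4 and Mcm3 in the ring, read 8.63 and 8.84 in fed, 8.63 and 8.84 in fasted wild-type and 8.82 and 8.79 in fasted Cnot3+/- liver. Its fasting difference was 0.00 with a 95% confidence interval from -0.32 to 0.32. That interval does not reach the interval of Mcm6 (-1.95 to -0.83) or of Mcm5 (-1.52 to -0.65). The difference between subunits was not itself tested.

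Of the ribonucleotide reductase subunits the small subunit, Rrm2, passed the test on fasting and the large subunit, Rrm1, did not. Rrm2, which is made in S phase and limits the enzyme's activity, read 8.33 and 8.74 in fed, 7.74 and 7.35 in fasted wild-type and 7.95 and 7.51 in fasted Cnot3+/- liver. It fell by 0.98 (SE 0.22, interval -1.49 to -0.48, limma adjusted p = 0.0495) with no overlap between the wild-type groups, a call at the edge of the threshold. It was lost after cyclic loess normalisation (adjusted p = 0.0544) and without single wild-type arrays (0.0757 to 0.255). Rrm1, the large subunit, read 7.89 and 7.99, then 7.46 and 7.45, then 7.24 and 7.57, a difference of -0.49 (interval -0.82 to -0.15, adjusted p = 0.115). Rrm2b, the small subunit that serves repair and resting cells, was not a member and differed by -0.20 (interval -0.56 to 0.16).

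Neither Cdk1 nor Pcna passed on fasting. Cdk1, the mitotic kinase, read 6.87 and 6.83 in fed, 6.25 and 6.09 in fasted wild-type and 6.29 and 5.81 in fasted Cnot3+/- liver. Its fed and fasted wild-type groups did not overlap. The difference between them, -0.69 (SE 0.17, interval -1.09 to -0.28), missed the threshold (limma adjusted p = 0.0727). Cdk1 passed when the 2 wild-type groups were fitted alone (0.0313). Pcna, the sliding clamp, read 10.62 and 10.56, then 10.43 and 10.76, then 9.99 and 10.55. Fed and fasted wild-type arrays overlapped, with a difference of 0.00 (interval -0.48 to 0.48).

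**Figure D3:**
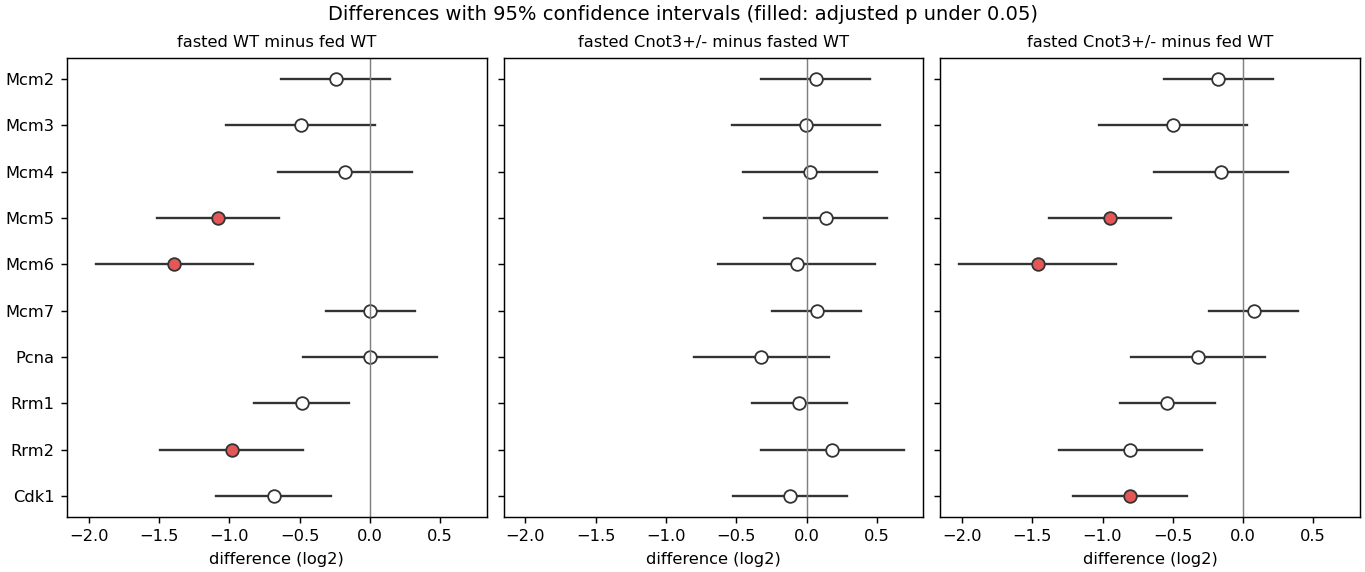
Log2 differences of the 10 replication genes with 95% confidence intervals from the limma fit of all 6 arrays, for fasting (left), genotype among fasted livers (middle) and fasted Cnot3+/- against fed wild-type (right); filled points passed at an adjusted p under 0.05. Filled points lie left of 0 in the outer panels, and every interval of the middle panel includes 0.

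The other probe sets of these genes bear on how far a single value can be trusted. Of the 27 probe sets, 7 were dim (mean at or under the array medians) and 12 have names that mark probes shared between transcripts. When every single-gene probe set was tested by itself, an alternative added after the data were seen, 4 of the 27 passed, all lower after fasting: 2 of Mcm6, 1 of Mcm5 and 1 of Rrm2. In that fit 1.66% of all 34945 probe sets were called lower and 0.970% higher. All 3 Rrm2 probe sets were above the array medians and had separate wild-type groups, with differences of -0.98 (adjusted p = 0.077), -1.23 (0.0368) and -0.44 (0.292). The second Mcm6 probe set was dim in its mean and differed by -1.53 (limma adjusted p = 0.00752). The third, also dim, differed by -0.19 (0.552). For Mcm4 the second probe set differed by -0.68 (0.273) with separate wild-type groups, and the brightest by -0.18. All 4 Mcm7 probe sets were above the medians and differed by -0.19 to 0.14. Their names all mark shared probes, so Mcm7 could not be tested without shared probe sets. The second Mcm2 probe set had the opposite sign to the first (0.16) and was uneven within the fasted groups, at 5.88 and 6.87 in wild-type and 5.57 and 6.72 in Cnot3+/- liver.

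**Figure D4:**
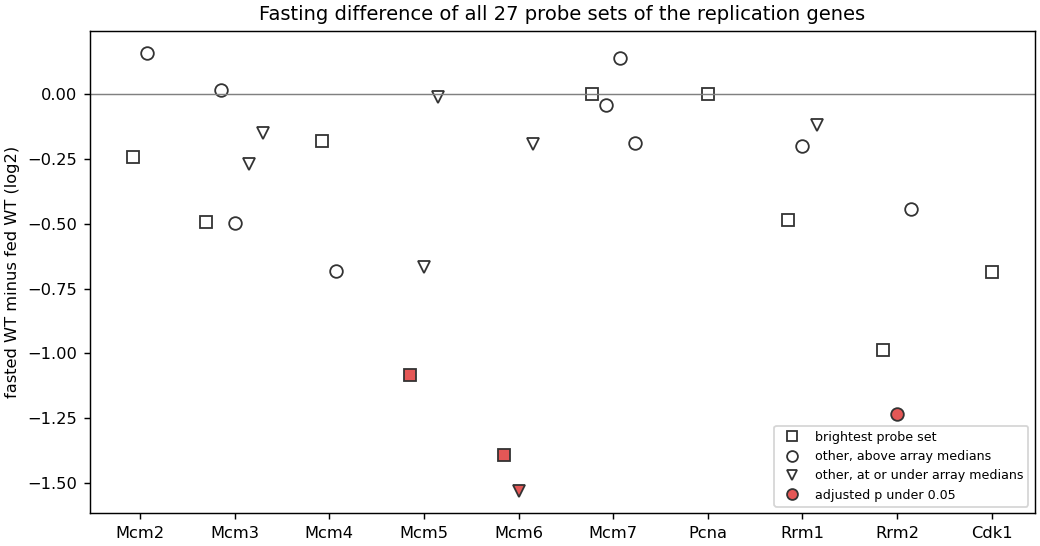
Fasting difference (log2) of each of the 27 probe sets of the replication genes, in a fit of all single-gene probe sets. Squares are the brightest probe set of a gene, circles other probe sets above the array medians and triangles those at or under them; the 4 filled points, of Mcm5, Mcm6 and Rrm2, passed at an adjusted p under 0.05.

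Between the fasted genotypes no replication gene passed the test. limma called 0 of the 10 genes and 0% of all 18193, and at an unadjusted p under 0.05 it gave 0 of the 10 and 5.56% of all genes. The differences, Cnot3+/- minus wild-type, were positive for 5 genes and negative for 5, with a median of 0.01, and all 10 genes overlapped between the groups, where 18.5% of all genes lay apart below and 17.5% above. The genes that fell on fasting differed by 0.14 (Mcm5, interval -0.30 to 0.57), -0.07 (Mcm6, -0.63 to 0.49) and 0.18 (Rrm2, -0.33 to 0.69). Pcna had the difference farthest from 0, at -0.32 (interval -0.80 to 0.16), with 1 Cnot3+/- array at 9.99 and the other at 10.55, within the wild-type range. Over the 10 genes the intervals ran from -0.80 (Pcna) to 0.69 (Rrm2), and genotype effects within them were not detectable with 2 arrays a group. These values are those of the brightest probe sets. Among the others, the fasted groups lay apart upward for a dim probe set of Mcm6 (0.46, interval 0.13 to 0.78, limma adjusted p = 0.814). They also lay apart upward for the second of Mcm4 (0.48) and a dim one of Mcm3 (0.03). Further probe sets of Mcm3 lay apart downward (-0.30 and -0.24), and none of these passed. None of the genes on the pathway lists described further on was called between the genotypes.

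Against fed wild-type liver, fasted Cnot3+/- liver had Mcm5, Mcm6 and Cdk1 lower. This comparison uses the same fed arrays as the fasting comparison, so its values stand beside those above and are not a second test of them. Again 3 of 10 genes passed, all downward, where 3.68% of all genes were called lower and 3.88% higher. Mcm6 fell by 1.46 (SE 0.24, limma adjusted p = 0.0145), Mcm5 by 0.95 (SE 0.19, 0.0266) and Cdk1 by 0.80 (SE 0.17, 0.0352). Rrm2 differed by -0.80 (adjusted p = 0.0748) and Rrm1 by -0.54 (0.0714). For 7 genes both Cnot3+/- arrays lay below both fed arrays (23.4% of all genes; 24.6% lay above), and the median of the 10 was -0.52. Without fed replicate 2, 0 of the 10 passed, and without fed replicate 1 or Cnot3+/- replicate 1 a lone gene did (Mcm6 and Cdk1, respectively). Cdk1 did not pass without Cnot3+/- replicate 2 (adjusted p = 0.107) or when these 2 groups were fitted alone (0.0684). Among genes above the median level Mcm6 passed alone, and Mcm5 and Cdk1 lay under that level and were not tested there. Without shared probe sets Rrm2 passed (adjusted p = 0.0265) and Mcm5 did not (-0.58, 0.0618). With probe sets averaged Mcm6 differed by -0.91 (adjusted p = 0.00842), and Mcm5 by -0.54 without passing (0.0585).

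Of 24 measured genes of origin licensing and firing, which load the ring and start it, 1 fell and 0 rose, with a median of 0.05. That count is near the background of 3.15% of all genes called lower, and so is no result about this group. The 1 was Dbf4, the activating subunit of the Cdc7 kinase that phosphorylates the Mcm ring. It read 6.97 and 6.21 in fed and 4.48 and 4.64 in fasted wild-type liver. The fall was 2.04 on the log2 scale (SE 0.24, limma adjusted p = 0.00623). Its fasted level is under the array medians, so the size of the fall is uncertain for this probe set. Averaged over its probe sets Dbf4 differed by -0.94 (adjusted p = 0.0208). It did not pass without fasted wild-type replicate 1 (adjusted p = 0.0647). In fasted Cnot3+/- against fed liver it fell by 1.80, or by 0.83 with its probe sets averaged.

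Of 35 measured polymerase and fork genes, 3 fell and 0 rose, with a median of -0.32 and 25 negative differences. Over all genes 3.15% were called lower and 45.3% had a negative difference. The falls were those of Pold2, a subunit of DNA polymerase delta (-0.75, SE 0.15, limma adjusted p = 0.0352), Rfc5 of the clamp loader that places Pcna on DNA (-0.73, SE 0.15, 0.0435) and Rpa1, which coats single-stranded DNA (-0.65, SE 0.14, 0.0492). None of the 3 passed when any 1 of the 4 wild-type arrays was left out (adjusted p 0.0718 to 0.271), and Rfc5 and Rpa1 also missed the threshold with a variance trend (0.0536 and 0.0514). In fasted Cnot3+/- against fed liver 3.68% of all genes were called lower and 3.88% higher. There Pold2, Rfc5, the nuclease Dna2 (-1.04) and Pole3 (-0.50) were called lower and Pole4 higher (0.92). Pole3 and Pole4 encode small subunits of DNA polymerase epsilon. These 5 calls came down to 0 or 1 when any 1 of the 6 arrays was left out, and to 1 when the 2 groups were fitted alone. Pole3 passed under 5 of 15 alternatives and differed by -0.24 with its probe sets averaged (adjusted p = 0.317), and Dna2 by -0.53 (0.0449).

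Among 19 measured genes of nucleotide supply, 3 fell and 1 rose, with 17 negative differences and a median of -0.20, where 3.15% of all genes were called lower, 1.87% higher and 45.3% had a negative difference. Dck, which salvages deoxycytidine, read 7.27 and 7.25 in fed and 5.40 and 5.74 in fasted wild-type liver. The fall was 1.69 (SE 0.16, limma adjusted p = 0.00326). Its fasted mean is under the array medians, so the size of the fall is uncertain for this probe set. Averaged over its probe sets Dck differed by -1.04 (adjusted p = 0.00535). Tk1, the S-phase thymidine kinase, went from 9.49 and 9.80 to 8.23 and 7.79 (-1.64, SE 0.29, adjusted p = 0.0252). Cad, which starts pyrimidine synthesis, fell by 1.03 (SE 0.20, 0.0352), and Ctps, which makes CTP, rose by 0.61 (SE 0.13, 0.0443). Dck passed under all 13 alternatives in which it was tested, and Tk1, Cad and Ctps did not pass when any 1 of the 4 wild-type arrays was left out (adjusted p 0.0711 to 0.221). Ctps passed under 7 of 15 alternatives, missing also with a variance trend (0.0661) and with the 2 wild-type groups alone (0.0556). Leaving out either Cnot3+/- array gives that same fit of the wild-type groups, so it is counted more than once among the 15. Cad missed when its probe sets were averaged (0.0626). In fasted Cnot3+/- against fed liver, where 3.68% of all genes were called lower, Dck, Tk1 and Cad were called lower again. So were the dUTPase Dut (-0.68), the thymidylate kinase Dtymk (-0.67) and Nme1, a nucleoside diphosphate kinase (-0.73). In that comparison Dck passed under all 13 alternatives, Tk1 and Cad under 12 of 15 each, Dtymk under 10 of 15, Nme1 under 7 of 14 and Dut under 6 of 15.

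Of 28 genes of G1/S control, 1 rose and 2 fell, against 1.87% of all genes called higher and 3.15% lower. Cdkn1a, an inhibitor of cyclin-dependent kinases, read 7.38 and 6.89 in fed and 10.27 and 10.23 in fasted wild-type liver, higher by 3.12 (SE 0.18, limma adjusted p = 0.00071), and passed under all 15 alternatives. Ccnd2, a D-type cyclin, fell by 0.68 (adjusted p = 0.0397), but missed with a variance trend (0.0527) and when its probe sets were averaged (0.055). Lin9, a subunit of the MuvB core that binds CHR elements, was called lower (-0.82, adjusted p = 0.0216) with both groups under the array medians, so its size is not interpreted, and it missed when its probe sets were averaged (-0.39, adjusted p = 0.129). Neither Ccnd2 nor Lin9 passed when any 1 of the 4 wild-type arrays was left out. Ccnd1, the D-type cyclin of hepatocyte cycle entry, differed by -0.87 (interval -1.61 to -0.14, adjusted p = 0.186). In fasted Cnot3+/- against fed liver 3.88% of all genes were called higher and 3.68% lower. There the cyclin Ccnd3 (0.75) and the pocket proteins Rb1 (0.72) and Rbl2 (0.56) were called higher. The pocket protein Rbl1 (-0.72, with its fasted level under the medians) was called lower, beside the calls of Cdkn1a, Ccnd2 and Lin9. These 7 calls came down to between 2 and 5 when any 1 array was left out and to 3 with the 2 groups alone, while Cdkn1a and Ccnd2 passed under all 15 alternatives. Rbl2 passed under 4 of 14, Ccnd3 and Rb1 under 9 of 15 each and Lin9 under 6 of 14. Rbl1 differed by -0.23 with its probe sets averaged (adjusted p = 0.277).

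Of 36 measured genes of mitosis and proliferation, 25 were dim, and 1 fell, where 3.15% of all genes were called lower, so this count is no result about the group. Cks1b, a small partner of cyclin-dependent kinases, went from 10.55 and 10.13 to 8.68 and 9.15, a fall of 1.43 (SE 0.20, limma adjusted p = 0.0116), which did not pass without fed replicate 1 (0.0507) or fasted wild-type replicate 1 (0.0881). Mki67 differed by -0.01 (interval -0.47 to 0.44) and Top2a by 0.13 (-0.17 to 0.44), both under the medians. In fasted Cnot3+/- against fed liver Cks1b was called lower again, passing under all 15 alternatives. So was Wee1, an inhibitor of Cdk1 (-0.56), which passed under 6 of 15. Shares called over all genes were 3.68% lower and 3.88% higher in that comparison, and 3.15% and 1.87% on fasting. Over the 5 lists 12 genes were called on fasting, and 2 to 6 when single wild-type arrays were left out. In fasted Cnot3+/- against fed liver 21 were called, 7 to 11 with any 1 array left out and 10 with the 2 groups alone.

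**Figure D5:**
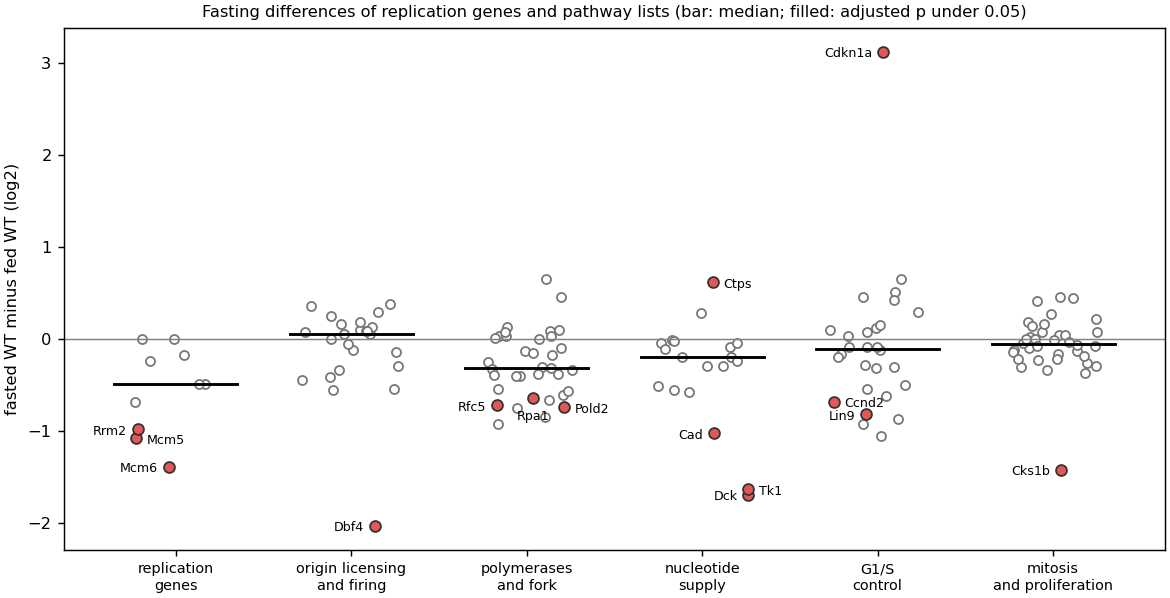
Fasting difference (log2, fasted minus fed wild-type) of each measured gene of the replication genes and of 5 pathway lists, with a bar at the list median and filled, named points for genes past an adjusted p of 0.05. The replication gene median lies at -0.49, and Dbf4, Dck, Tk1 and Cks1b are filled points lower than that of Mcm6 (-1.39).

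Markers of other liver cells were read beside these values. Above the array medians were 3 of 6 measured lymphocyte genes, 2 of 5 neutrophil genes and 2 of 4 erythroid genes, and 0 genes of these lists passed the test on fasting. The summed log2 level of the lymphocyte list was 8.25 to 8.32 in fed, 8.36 to 8.38 in fasted wild-type and 8.30 to 8.39 in fasted Cnot3+/- liver. The erythroid sum was 10.47 to 10.66, 9.75 to 10.10 and 10.10 to 10.36 in the same order, lower on all 4 fasted arrays than on the fed arrays. The Kupffer cell sum was 11.78 to 12.17, 12.26 to 12.35 and 12.55 to 13.08, with 0 of 7 genes past the test on fasting. On fasting 5 of the 7 genes lay apart above and 0 below, where 27.1% of all genes lay apart above. Between the fasted genotypes 6 lay apart above and 0 below (17.5% of all above). In fasted Cnot3+/- against fed liver 3 of the 7 were called higher, as were 3.88% of all genes. Of 6 stellate cell and fibroblast genes, Col3a1, Lrat and Col1a1 were called lower and Dcn higher on fasting. Over all genes 3.15% were called lower and 1.87% higher. The sum of the 6 genes was 12.16 to 12.26 in fed and 12.26 to 12.36 in fasted wild-type liver. The endothelial sum was 11.42 to 11.43 in fed and 11.60 to 11.67 in fasted wild-type liver. On fasting 1 of its 6 genes was called higher and 0 lower, where 1.87% of all genes were called higher. In the same order the neutrophil sum was 7.61 to 7.65 and 7.51 to 7.78, and the cholangiocyte sum 7.95 to 8.32 and 7.87 to 8.16. The part of these cell types in the replication gene values was not tested.

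Genes whose profile over the 6 arrays was most like that of the 10 replication genes together included another enzyme of nucleotide supply and a mitotic checkpoint gene. The 5 highest Pearson correlations, among 5156 genes above the median gene that spanned at least 0.5 log2 units, were those of Cstf2 (r = 0.997), Cad (0.997), Rnd3 (0.996), Mad2l1 (0.995) and Tmco3 (0.995). Mad2l1, the spindle checkpoint protein, read 7.37 and 7.53 in fed, 6.56 and 6.74 in fasted wild-type and 6.40 and 6.71 in fasted Cnot3+/- liver. Cstf2 is a 3' end processing factor for mRNAs. The 6 points share the split between fed and fasted arrays, so these correlations describe the arrays and carry no test.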

How the data were processed

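Expression was measured in mouse liver on 6 arrays (3 groups of 2). The deposited table holds log2 levels, and the submitters' processing notes name RMA, a method that corrects background, normalises quantiles and summarises the probes of a set; its version is not given in the sources used here. They were used as deposited. Of 45101 probe sets, 64 controls, 932 with several gene names and 9160 with none were left out. GEO's probe annotation gave the names, updated through RefSeq for 18032 of 18193 genes.

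limma 3.58.1 on R 4.3.3 fitted 3 group means to all 6 arrays (lmFit, eBayes; 3 residual and 4.24 prior degrees of freedom), with Benjamini-Hochberg adjustment over all genes at 0.05. SE is moderated. No low-value filter was applied; a mean at or under the mean array median (5.62) is called dim. The fit was tested on simulated data. The members, gene lists and naming rule (list members past the test in any comparison, at most 8 per list by p; 6 genes always; the 5 most alike) were chosen with earlier results of these data known. Alternatives were other probe set choices, normalisations, filters, variance models, blocks and single arrays left out. Leaving out either array of the group not compared gives the same fit as the compared groups alone. Counts of alternatives passed therefore include that fit more than once. Figures used matplotlib 3.10.9 on Python 3.11.15.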

Additional observations from a re-analysis of the deposited data

How the results depend on the processing

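Of the 3 calls among the replication genes on fasting, none held without any single fed or fasted wild-type array, so the count ran from 0 to 4 over arrays left out, and calls over all genes from 137 to 1033. For fasted Cnot3+/- against fed liver these counts ran from 0 to 2 and from 597 to 929, and between genotypes 0 to 2 genes were called in all. With the fasted Cnot3+/- and fed wild-type groups alone 857 genes were called. Among genes above the median level 1 replication gene was called for fasted Cnot3+/- against fed liver and 2 on fasting. Mcm5 and Cdk1 were not tested there. Fewer samples or genes enter these fits. With the replicate number as a block, fasting gave 3 replication genes (Rrm2 lost at an adjusted p of 0.0524, Cdk1 gained at 0.0425) and 1206 genes. The numbers were not taken as pairs: deviations of equal-numbered arrays correlated at 0.609 between the fasted groups, but at -0.009 and 0.016 with the fed group. Small differences changed sign, and the cause was not tested. On fasting, averaging probe sets gave -0.022 for Mcm7 and -0.077 for Top2a, leaving out shared probe sets 0.16 for Mcm2 and 0.017 for Mcm3, and centring on brighter genes 0.019 for Mki67. Between genotypes, averaging probe sets gave -0.080 for Mcm2 and 0.13 for Mcm6, leaving out shared probe sets -0.23 for Mcm2, cyclic loess 0.045 for Mcm3, centring on brighter genes -0.0023 for Mcm2 and -0.046 for Mcm4, and quantile normalisation, an alternative added after seeing the data, 0.035 for Mcm3 and -0.0021 for Mcm7. With single arrays left out, fasting differences ran from -0.11 to 0.11 for Mcm7, -0.16 to 0.17 for Pcna and -0.23 to 0.20 for Mki67. Genotype differences ran from -0.019 to 0.15 for Mcm2, -0.22 to 0.21 for Mcm3, -0.24 to 0.29 for Mcm4, -0.092 to 0.36 for Mcm5, -0.34 to 0.20 for Mcm6, -0.034 to 0.18 for Mcm7, -0.22 to 0.12 for Rrm1, -0.035 to 0.40 for Rrm2 and -0.36 to 0.12 for Cdk1. Against fed liver, Cnot3+/- differences ran from -0.39 to 0.038 for Mcm2, -0.42 to 0.11 for Mcm4 and -0.027 to 0.18 for Mcm7. Mcm5, Mcm6 and Rrm2, the genes called lower, kept a negative fasting difference under every alternative in which they were tested. The variance trend, the block and the 2 wild-type groups alone cannot move that difference, so its sign was fixed there. With 2 arrays a group, and dim probe sets for mitotic genes, small changes were not detectable.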
